A study of Homo sapiens with 12 samples.

Results

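The genes described here are 55 genes of G2, mitosis and cytokinesis, measured in kidney cancer cells after activation of FoxO1 or FoxO3. They were chosen by name, as genes whose products are known to act between the end of DNA replication and the separation of the daughter cells. The members, their roles and the other lists read below were chosen with earlier results of these data known. For each gene, the probe set annotated to that symbol alone with the highest mean over the 12 arrays was used. All 55 were among the 19775 genes of the array's gene table, and all 55 were among the 14283 genes tested, which reached the array median on at least 2 arrays. No member lay at the lower limit of measurement on any array. The genes were sorted under 8 broad headings, called roles here, and a heading does not state the function of each gene under it. The roles are 6 cyclins, CDK1 and its activating phosphatases, 9 Aurora and Polo kinases and partners, 11 kinetochore and checkpoint genes, 9 kinesins, 5 genes of condensin and topoisomerase, 4 of the anaphase ubiquitin pathway, 9 of the spindle and cytokinesis, and 2 transcription factors.

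RCC4 and UMRC2 are established human kidney cancer lines, described by the submitters as low in their own FoxO1 and FoxO3. Each was given, with puromycin selection and stable expression, one of 3 constructs. EV is the control construct, which per the submitters carries the modified estrogen receptor part ERT2 alone. FoxO1 and FoxO3 stand for FoxO1(TA)-ERT2 and FoxO3(TA)-ERT2, in which the AKT phosphorylation sites of the FoxO protein are changed to alanine and the protein is fused to ERT2. AKT can therefore no longer keep it out of the nucleus, but ERT2 holds it in the cytoplasm until 4-hydroxytamoxifen (4OHT) is added. Each of the 6 engineered lines received vehicle (ethanol) or 100 nM 4OHT for 12 h, a time chosen by the study because cell cycle arrest and cell death could not yet be seen. All cells grew in DMEM with serum and puromycin, and all 4OHT groups, EV included, received the same agent. Every combination has 1 array of total RNA, which limits the precision. The labels do not say whether an engineered line was 1 clone or a pool.

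Entry into mitosis is driven by CDK1 bound to cyclin B, which the CDC25 phosphatases switch on and which the Aurora and Polo kinases help to start and to steer. Chromosomes are then compacted by condensin, moved by kinesins and held at kinetochores, where the spindle checkpoint keeps CDC20 and the anaphase-promoting complex inactive until every chromosome is attached. Most of these genes are transcribed in a wave in G2, through the MuvB complex with B-MYB (MYBL2) and FOXM1, and are kept low in resting cells by the DREAM complex, which also holds MuvB. FoxO factors are known in many tissues as inhibitors of the cell cycle that act when AKT is inactive.

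The common promoter elements of this gene wave are the cell cycle genes homology region (CHR), at which MuvB binds, and the CCAAT box, at which NF-Y binds. The sequences below are the 250 bases before the transcription start of the 3 members with the lowest FoxO3 response against EV (CDC20, KIF20A and CCNA2), of PLK1 as a member with both elements, and of HMMR. HMMR is shown as a contrast with a response near 0 and was picked after its values were seen. Sequences run 5′ to 3′ on the strand of the gene, from RefSeq (GRCh38.p14), and end at the base before the start. They lie at chr1:43358731-43358980 (plus strand), chr5:138178862-138179111 (plus), chr4:121823884-121824133 (minus), chr16:23678639-23678888 (plus) and chr5:163460382-163460631 (plus), in the order printed. Capitals mark TTTGAA, the only form of the CHR searched for here, and CCAAT on either strand.
CDC20: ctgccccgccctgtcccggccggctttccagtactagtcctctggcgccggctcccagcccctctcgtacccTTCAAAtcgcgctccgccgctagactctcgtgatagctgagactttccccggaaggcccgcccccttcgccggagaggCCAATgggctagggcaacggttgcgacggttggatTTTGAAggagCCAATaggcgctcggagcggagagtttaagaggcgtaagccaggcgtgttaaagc
KIF20A: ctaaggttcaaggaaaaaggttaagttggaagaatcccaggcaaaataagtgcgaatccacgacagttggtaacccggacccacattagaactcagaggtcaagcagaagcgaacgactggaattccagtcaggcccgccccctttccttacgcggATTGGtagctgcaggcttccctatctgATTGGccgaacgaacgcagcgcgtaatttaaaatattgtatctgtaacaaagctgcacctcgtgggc
CCNA2: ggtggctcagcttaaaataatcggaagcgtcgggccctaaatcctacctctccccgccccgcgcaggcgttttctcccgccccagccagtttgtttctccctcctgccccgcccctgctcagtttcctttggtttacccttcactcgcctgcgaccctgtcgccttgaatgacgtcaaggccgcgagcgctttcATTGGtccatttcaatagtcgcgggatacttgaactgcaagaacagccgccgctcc
PLK1: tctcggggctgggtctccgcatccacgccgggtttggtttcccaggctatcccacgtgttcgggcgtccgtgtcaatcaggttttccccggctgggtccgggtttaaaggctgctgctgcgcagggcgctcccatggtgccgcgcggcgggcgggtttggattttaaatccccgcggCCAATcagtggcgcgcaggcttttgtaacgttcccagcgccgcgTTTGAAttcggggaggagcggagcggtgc
HMMR: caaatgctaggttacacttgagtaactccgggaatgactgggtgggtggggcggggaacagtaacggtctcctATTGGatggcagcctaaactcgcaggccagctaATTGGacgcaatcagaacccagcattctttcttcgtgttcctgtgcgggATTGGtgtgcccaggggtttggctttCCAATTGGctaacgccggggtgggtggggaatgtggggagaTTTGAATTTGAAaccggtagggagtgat

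Of the 55 members, 47 had a promoter in the RefSeq table. The window searched was 300 bases, 250 before the start and 50 after it, on both strands. TTTGAA was found in 32 of the 47 (68.1%), against 15.4% of 27305 promoters of the same length. CCAAT was found in 31 (66.0%, against 35.7%), and both were found in 23 (48.9%, against 6.08%). In PLK1 TTTGAA begins at position -29 from the start and the CCAAT box at -73. KIF20A and CCNA2, both with large falls described below, hold CCAAT but no TTTGAA in this window. A CHR with other letters was not searched for, so members without TTTGAA are not shown to lack a CHR. HMMR holds 2 copies of TTTGAA, at -28 and -22. The forkhead core GTAAACA was present in 1 member, CDK1 (2.13%, against 3.41%), and the E2F core GCGGGAA in 6 (12.8%, against 6.56%). The median difference of the FoxO3 response from EV was -0.90 (log2) in the members with TTTGAA and -1.24 in those without it. The order was the other way for CCAAT, -1.05 with it and -0.88 without it, and the values were -0.99 with both elements and -1.07 in the rest. A match of letters is a description of the window and shows neither a bound site nor its absence elsewhere.

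Before the results, the arrays themselves need a word. The median deposited intensity ran from 71.1 to 138.7. The spike-in controls put 5 RCC4 arrays at one level (geometric mean 4212 to 4699 over 18 probe sets) and the 6 UMRC2 arrays at another (2239 to 2463). The RCC4 FoxO3 array with 4OHT, at 2515, stood with the UMRC2 arrays. That pair therefore spans both levels, and its results are given with and without it. The ERT2 part of the constructs was read through all 9 ESR1 probe sets on the vehicle arrays. Their median was log2 7.85 for FoxO1, 9.77 for FoxO3 and 5.28 for EV in RCC4, and 9.09, 10.33 and 4.90 in UMRC2. The EV lines thus lay below the array median of 6.67 and showed no ERT2 signal by these probe sets, although ERT2 is given as part of that construct. The signal was higher in the FoxO3 than in the FoxO1 line of each cell line. In 5 of the 9 probe sets every fusion vehicle array was at least log2 1 above every EV vehicle array. The median of these 5, picked by their values, was 9.22 for FoxO1 and 12.49 for FoxO3 in RCC4. In UMRC2 it was 12.29 and 13.23. The part of the fusion level in the differences below was not tested. The probe sets used for FOXO1 and FOXO3 did not mark the lines named for them: on vehicle FOXO3 was at 10.19 in RCC4 FoxO3 and 10.38 in RCC4 EV, and at 11.58 and 11.65 in UMRC2. FOXO1 was at 6.50 in RCC4 FoxO1 and 6.46 in RCC4 EV, and at 7.12 and 6.78 in UMRC2. They therefore do not check which FoxO a line carries. Of the kidney markers PAX8, PAX2 and CDH6, the epithelial keratins KRT8 and KRT18 and the mesenchymal VIM, PAX8, KRT8, KRT18 and VIM were above the array median on all 12 arrays, PAX2 on 11 and CDH6 on 10. The lowest PAX2 level, 5.91, was on the RCC4 FoxO3 array with 4OHT. Of markers of other cells, PTPRC, VWF, ALB and DES were below the array median on all 12, while PECAM1 was above it on 12 and CD3E on 9.

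A response is the log2 level with 4OHT minus the log2 level with vehicle in 1 engineered line, so that -1 is a 2-fold lower level. FoxO3 activation was followed by lower levels of nearly all of the mitosis genes in both lines, and no such shift was seen in the FoxO1 or EV lines. The median response of the 55 members was -1.02 in RCC4 FoxO3 and -1.06 in UMRC2 FoxO3. It was 0.05 and -0.11 in the FoxO1 lines and 0.01 and -0.06 in the EV lines of RCC4 and UMRC2. In each of the FoxO3 lines 29 of the 55 were at least 2-fold lower with 4OHT, against 12.2% of all genes tested in RCC4 and 10.9% in UMRC2. None of the 55 was 2-fold lower or higher in any FoxO1 or EV line, where 340 to 640 of the 14283 genes were, in each line and direction. Since these are bulk samples, fewer cells in G2 and mitosis and less RNA per such cell cannot be told apart.

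**Figure D1:**
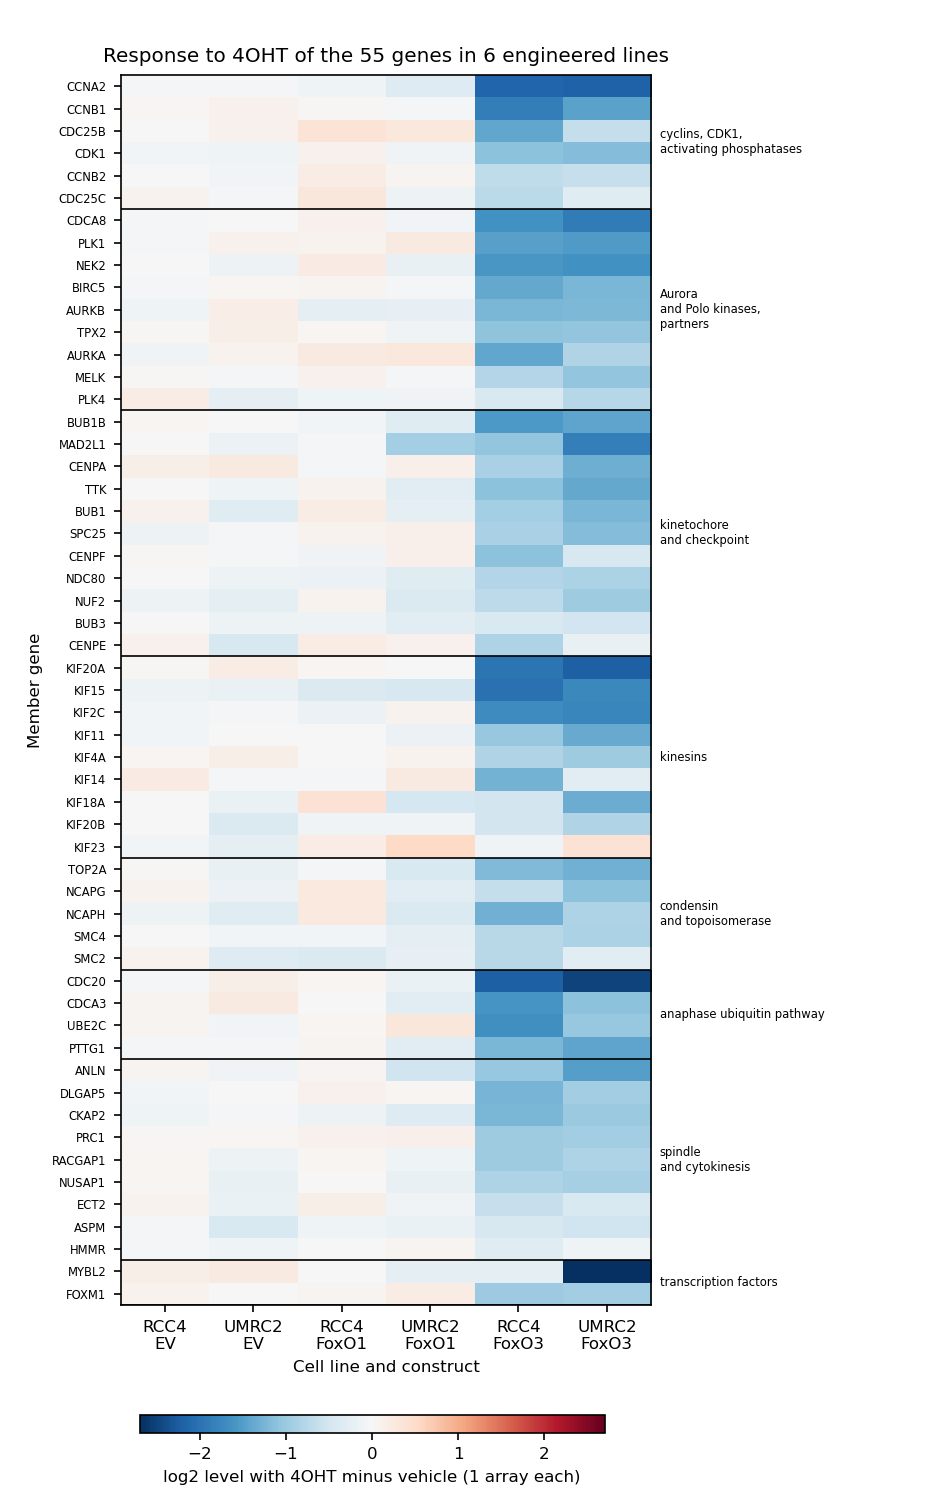
Responses to 4OHT (log2 level with 4OHT minus vehicle, colour scale) of the 55 genes in rows, grouped by role, in the 6 engineered lines in columns, with 1 array for each treatment. The FoxO3 columns are blue nearly throughout, with medians of -1.02 in RCC4 and -1.06 in UMRC2, while the EV and FoxO1 columns lie between -0.93 (MAD2L1 in UMRC2 FoxO1) and 0.54 (KIF23 in UMRC2 FoxO1).

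The first comparison asked whether the members responded to FoxO3 more than to 4OHT alone. In limma, the 2 cell lines stood as replicates of each construct. The FoxO3 response was called lower than the EV response in 40 of the 55 members and higher in 0. Over all 14283 genes tested 10.0% were called lower and 6.61% higher. The difference was below 0 in 54 members, with a median of -1.04 against -0.07 over all genes, and it ran from -2.41 (CDC20) to 0.32 (KIF23). On the level scale, both FoxO3 arrays with 4OHT lay below all 10 other arrays in 42 of the 55 members. The same held for 11.3% of the genes tested. Values after ± below are standard errors from limma, with n = 2 lines for each construct, and adjusted p-values are over all genes tested. Nothing in the labels says that any samples were separate cultures of one line, so the p-values measure the spread of construct effects between the lines, array noise included.

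These calls had limits. With no filter on dim probe sets, or with a prior variance that does not follow the mean level, 0 of the 55 passed, although 45 and 42 had an unadjusted p under 0.05. At both settings 0% of all genes tested were called lower or higher. With the values as deposited, on which the median of all genes itself moved to -0.42, 12 members were called lower and the member median was -1.40. Of all genes tested 3.20% were called lower on those values. Leaving out 1 pair at a time, 26 of the 40 kept their call each time and 14 lost it at least once. NDC80 lost it without any one of the 6 pairs, NCAPG without 4 of them, CCNB2 and SPC25 without 3, and BUB1, CENPF and DLGAP5 without 2. CDC25B and RACGAP1 lost it without RCC4 EV only, and AURKB, CENPA, KIF11, SMC4 and CKAP2 without UMRC2 EV only.

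The same members were compared directly between the FoxO3 and FoxO1 responses. Here 38 of 55 were called lower with FoxO3 and 0 higher, against 3.65% and 2.17% of all genes tested. All 55 differences were below 0, with a median of -1.02 (all genes -0.06), from -2.29 (CDC20) to -0.21 (SMC2 and KIF23). Without the RCC4 FoxO1 pair the count was 6 and without the UMRC2 FoxO1 pair 19, and a FoxO1 arm of 1 line is then assumed to vary like the others. Of the 38 calls, 6 were kept whichever of the 6 pairs was left out. On the deposited values 2 members were called lower, against 0.224% of all genes tested. With no filter or with the constant prior variance 0 members and 0% of all genes were called. At these settings 45 and 43 members had an unadjusted p under 0.05.

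The FoxO1 response against the EV response gave 0 members lower and 0 higher in limma, and 0 members had an unadjusted p under 0.05. Over all genes tested 0% were called lower and 0.0840% higher. The member median was 0.02 (all genes -0.02), and it became -0.15 on the values as deposited and -0.03 with arrays scaled to a common median, so it has no settled sign. Members ran from -0.41 (MAD2L1) to 0.53 (KIF23). FoxO1 against EV and FoxO3 against EV share the EV arrays, so the values below are given side by side for each gene.

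**Figure D2:**
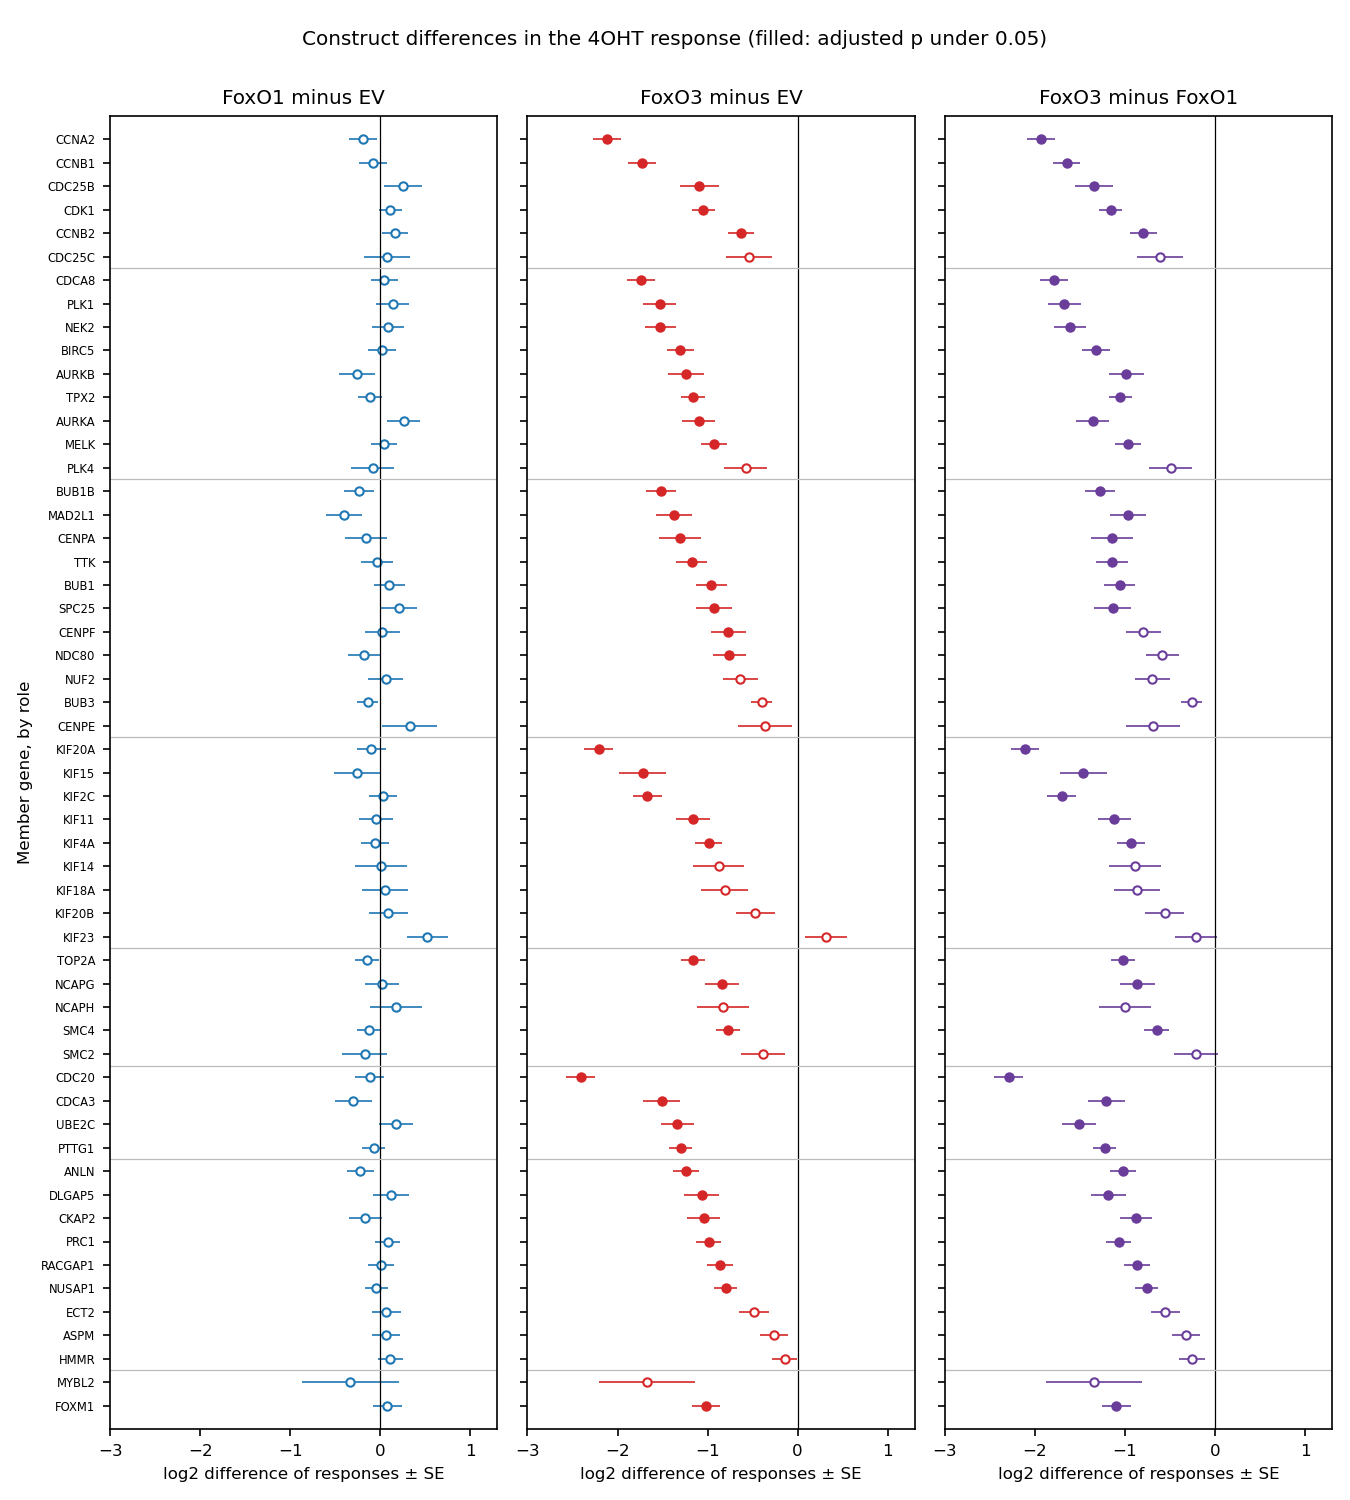
Differences between constructs in the response to 4OHT (log2, horizontal axis) for the 55 genes in rows by role, as the limma estimate with its standard error, FoxO1 minus EV on the left, FoxO3 minus EV in the middle and FoxO3 minus FoxO1 on the right. Filled points have an adjusted p under 0.05: 0 of 55 on the left, 40 in the middle and 38 on the right, all of them below 0.

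Of the 6 cyclins, CDK1 and its activating phosphatases, 5 were called lower with FoxO3 than with EV. All 6 were below 0, with a median of -1.07. CCNA2, cyclin A2, activates CDK1 and CDK2 in S phase and G2. Its log2 level with vehicle and with 4OHT was 12.12 and 12.10 in RCC4 EV, 12.03 and 11.92 in RCC4 FoxO1 and 12.11 and 9.96 in RCC4 FoxO3. In UMRC2 it read, in the same order, 11.93 and 11.88 with EV, 11.84 and 11.49 with FoxO1 and 11.81 and 9.64 with FoxO3. The FoxO3 arrays with 4OHT were the lowest of the 12 in both lines, and the difference of responses was -2.12 ± 0.16 (SE, n = 2 lines, adjusted p = 0.00103). CCNB1, cyclin B1, is the partner that takes CDK1 into mitosis. CCNB1 read 12.95 and 13.00 in RCC4 EV, 12.77 and 12.80 in RCC4 FoxO1 and 12.94 and 11.08 in RCC4 FoxO3. In UMRC2 CCNB1 read 12.89 and 12.99 with EV, 12.71 and 12.68 with FoxO1 and 12.86 and 11.42 with FoxO3. Again only the FoxO3 arrays with 4OHT stood apart, the other 10 lying between 12.68 and 13.00, and the difference was -1.73 ± 0.15 (SE, n = 2 lines, adjusted p = 0.00149). CDK1 is the kinase itself. CDK1 read 12.84 and 12.76 in RCC4 EV, 12.70 and 12.83 in RCC4 FoxO1 and 12.78 and 11.67 in RCC4 FoxO3. In UMRC2 CDK1 read 12.74 and 12.62 with EV, 12.55 and 12.46 with FoxO1 and 12.58 and 11.40 with FoxO3. Its difference was -1.05 ± 0.13 (SE, n = 2 lines, adjusted p = 0.00283), with no overlap between these 2 arrays and the others.

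CDC25C, a phosphatase that removes the inhibitory phosphates of CDK1, had the highest value of this role. CDC25C read 10.08 and 10.17 in RCC4 EV, 9.90 and 10.21 in RCC4 FoxO1 and 10.28 and 9.55 in RCC4 FoxO3. In UMRC2 CDC25C read 10.30 and 10.24 with EV, 10.00 and 9.87 with FoxO1 and 10.09 and 9.77 with FoxO3. Both FoxO3 arrays with 4OHT were again the lowest, but the difference of -0.54 ± 0.26 (adjusted p = 0.205) did not pass. CDC25B (-1.09 ± 0.21, adjusted p = 0.0142) and CCNB2, another B-type cyclin (-0.63 ± 0.15, adjusted p = 0.0264), were lower. Relative to FoxO1, the FoxO3 response was -1.93 in CCNA2, -1.65 in CCNB1 and -1.16 in CDK1, all called. FoxO1 minus EV lay between -0.19 and 0.25 over the 6 genes.

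**Figure D3:**
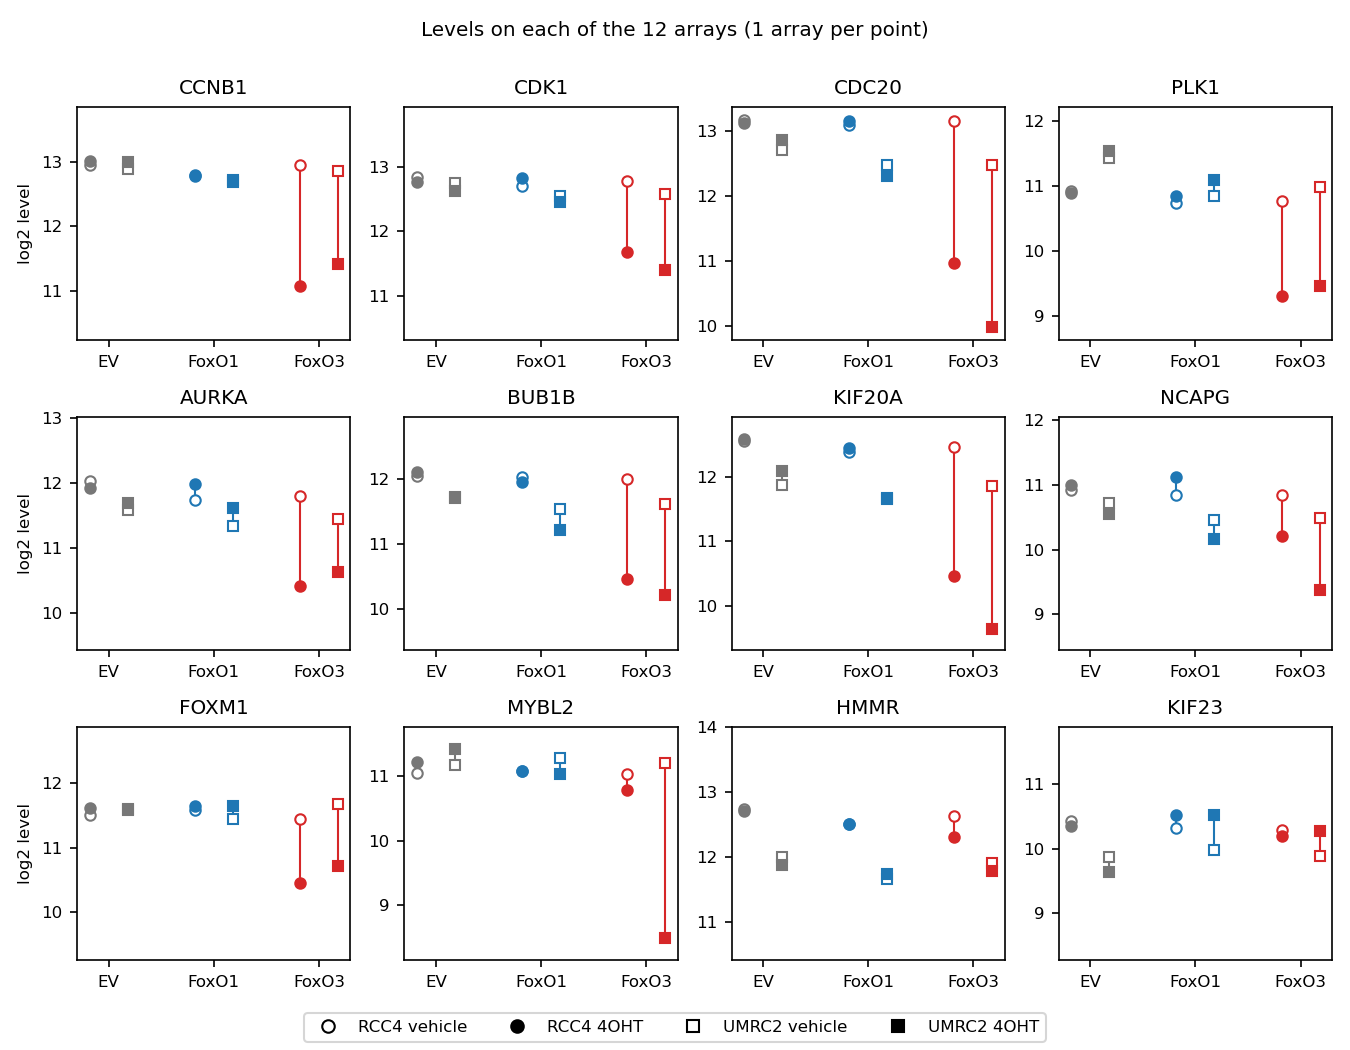
Levels (log2 intensity after normalisation, vertical axes) of 12 members on each of the 12 arrays, by construct, with circles for RCC4, squares for UMRC2, open symbols for vehicle and filled symbols for 4OHT, and 1 array for each point. In the first 7 panels and in FOXM1 both FoxO3 lines drop with 4OHT below all other arrays, and MYBL2 drops far only in UMRC2. In HMMR and KIF23 the FoxO3 lines do not both drop below all other arrays, though within RCC4 the FoxO3 array with 4OHT is the lowest.

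Among the 9 Aurora and Polo kinases and partners, 8 were called lower with FoxO3 than with EV. All 9 were below 0, with a median of -1.24. CDCA8 (borealin), a subunit of the chromosomal passenger complex that carries Aurora B to centromeres, had the lowest value. CDCA8 read 11.76 and 11.74 in RCC4 EV, 11.69 and 11.82 in RCC4 FoxO1 and 11.75 and 10.11 in RCC4 FoxO3. In UMRC2 CDCA8 read 12.44 and 12.43 with EV, 12.22 and 12.15 with FoxO1 and 12.30 and 10.42 with FoxO3. Only the FoxO3 arrays with 4OHT were low, and the difference was -1.74 ± 0.15 (SE, n = 2 lines, adjusted p = 0.00149). The other subunits in the list moved the same way, BIRC5 (survivin) by -1.30 ± 0.15 (adjusted p = 0.00256) and the kinase AURKB by -1.24 ± 0.20 (adjusted p = 0.0063). PLK1, the Polo kinase of mitotic entry and exit, came next. PLK1 read 10.93 and 10.89 in RCC4 EV, 10.74 and 10.84 in RCC4 FoxO1 and 10.77 and 9.30 in RCC4 FoxO3. In UMRC2 PLK1 read 11.43 and 11.54 with EV, 10.84 and 11.08 with FoxO1 and 10.99 and 9.46 with FoxO3. The other 10 arrays lay at 10.74 or above, and the difference was -1.53 ± 0.18 (SE, n = 2 lines, adjusted p = 0.0026).

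AURKA builds the spindle poles with its activator TPX2. AURKA read 12.03 and 11.93 in RCC4 EV, 11.74 and 11.98 in RCC4 FoxO1 and 11.79 and 10.40 in RCC4 FoxO3. In UMRC2 AURKA read 11.58 and 11.68 with EV, 11.34 and 11.62 with FoxO1 and 11.44 and 10.63 with FoxO3. The fall was larger in RCC4 than in UMRC2, and both FoxO3 arrays with 4OHT lay under all others. AURKA differed from EV by -1.10 ± 0.18 (adjusted p = 0.0075) and TPX2 by -1.16 ± 0.13 (adjusted p = 0.00244). NEK2, a kinase that separates centrosomes, fell by 1.52 on the log2 scale relative to EV (adjusted p = 0.00244), and MELK differed by -0.93 ± 0.14 (adjusted p = 0.0061). PLK4, which starts centriole duplication in G1 and S phase, had the highest value of this role. PLK4 read 9.59 and 9.79 in RCC4 EV, 9.77 and 9.66 in RCC4 FoxO1 and 9.60 and 9.18 in RCC4 FoxO3. In UMRC2 PLK4 read 9.72 and 9.48 with EV, 9.55 and 9.45 with FoxO1 and 9.55 and 8.79 with FoxO3. Its 2 FoxO3 arrays with 4OHT were the lowest of the 12, but its difference of -0.58 ± 0.24 (adjusted p = 0.148) did not pass. FoxO1 minus EV ran from -0.26 (AURKB) to 0.26 (AURKA) and 0 of the 9 were called. FoxO3 minus FoxO1 was called in 8 of the 9, with PLK1 at -1.67 and AURKA at -1.36.

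Of the 11 kinetochore and checkpoint genes 8 were called lower with FoxO3 than with EV, and all 11 were below 0 (median -0.93). BUB1B encodes BubR1, a checkpoint kinase-like protein that binds CDC20. BUB1B read 12.05 and 12.11 in RCC4 EV, 12.02 and 11.96 in RCC4 FoxO1 and 11.99 and 10.45 in RCC4 FoxO3. In UMRC2 BUB1B read 11.70 and 11.72 with EV, 11.54 and 11.21 with FoxO1 and 11.62 and 10.20 with FoxO3. The UMRC2 FoxO1 array with 4OHT was lower than its vehicle by 0.33, the FoxO3 arrays with 4OHT were lower still, and the difference from EV was -1.51 ± 0.17 (SE, n = 2 lines, adjusted p = 0.00218). Other checkpoint genes that were lower were MAD2L1 (-1.37 ± 0.20, adjusted p = 0.00483), TTK, the MPS1 kinase (-1.18 ± 0.18, adjusted p = 0.00538), and BUB1 (-0.96 ± 0.17, adjusted p = 0.00974). MAD2L1 was the member with the lowest FoxO1 value, which came from UMRC2: its response there was -0.93, against -0.05 in RCC4 FoxO1. BUB3, which pairs with BUB1 and BUB1B, was at -0.40 ± 0.12 (adjusted p = 0.0592) and did not pass.

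Of the structural kinetochore genes, CENPA, the centromeric histone (-1.30 ± 0.23, adjusted p = 0.0101), SPC25 (-0.93 ± 0.20, adjusted p = 0.021), CENPF (-0.77 ± 0.20, adjusted p = 0.0353) and NDC80 (-0.76 ± 0.18, adjusted p = 0.0287) were lower. NUF2, the partner of NDC80 in microtubule binding, was at -0.64 ± 0.19 (adjusted p = 0.0642) and was not called. CENPE, a kinetochore motor that carries chromosomes to the spindle middle, had the highest value. CENPE read 10.03 and 10.14 in RCC4 EV, 9.98 and 10.19 in RCC4 FoxO1 and 10.10 and 9.27 in RCC4 FoxO3. In UMRC2 CENPE read 9.69 and 9.26 with EV, 9.47 and 9.59 with FoxO1 and 9.47 and 9.26 with FoxO3. With 4OHT it dropped by 0.83 in RCC4 FoxO3, but in UMRC2 it dropped by 0.43 with EV and by 0.21 with FoxO3, to the same level. CENPE differed from EV by -0.36 ± 0.30 (adjusted p = 0.49). Against FoxO1, 6 of the 11 were called, and CENPF and NDC80 were the 2 called against EV but not against FoxO1 (adjusted p = 0.0602 and 0.112).

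The 9 kinesins spread the widest, from -2.21 to 0.32 with a median of -0.99. Of them, 5 were called lower with FoxO3 than with EV and 8 were below 0. KIF20A, which works at the midzone and in cytokinesis, was at the low end. KIF20A read 12.55 and 12.58 in RCC4 EV, 12.38 and 12.43 in RCC4 FoxO1 and 12.45 and 10.47 in RCC4 FoxO3. In UMRC2 KIF20A read 11.88 and 12.08 with EV, 11.66 and 11.65 with FoxO1 and 11.85 and 9.65 with FoxO3. The other 10 arrays did not go below 11.65, and the difference was -2.21 ± 0.16 (SE, n = 2 lines, adjusted p = 0.00103). KIF15 (-1.72 ± 0.26, adjusted p = 0.00552), KIF2C, which removes wrong attachments at centromeres (-1.67 ± 0.16, adjusted p = 0.00161), KIF11 (Eg5), the motor that pushes spindle poles apart (-1.16 ± 0.19, adjusted p = 0.0067), and the chromokinesin KIF4A (-0.99 ± 0.15, adjusted p = 0.00578) were also lower. KIF23, a subunit of centralspindlin in cytokinesis, was the only member above EV. KIF23 read 10.43 and 10.34 in RCC4 EV, 10.32 and 10.51 in RCC4 FoxO1 and 10.29 and 10.20 in RCC4 FoxO3. In UMRC2 KIF23 read 9.88 and 9.64 with EV, 9.98 and 10.52 with FoxO1 and 9.88 and 10.28 with FoxO3. The UMRC2 FoxO1 and FoxO3 arrays with 4OHT were the highest of that line, the RCC4 arrays moved little, and KIF23 was at 0.32 ± 0.23 (adjusted p = 0.422) against EV and -0.21 ± 0.23 (adjusted p = 0.673) against FoxO1.

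KIF14, KIF18A and KIF20B did not pass, at -0.88 ± 0.29 (adjusted p = 0.0822), -0.81 ± 0.26 (adjusted p = 0.074) and -0.47 ± 0.22 (adjusted p = 0.204). Their lines differed: KIF14 responded to FoxO3 by -1.27 in RCC4 and -0.29 in UMRC2, and KIF18A by -0.49 and -1.34. FoxO1 minus EV was called in 0 of the 9 kinesins. Its highest value was that of KIF23, at 0.53 ± 0.23 (adjusted p = 0.507).

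Condensin and topoisomerase held 3 genes called lower than EV among 5, and all 5 were below 0 (median -0.82). TOP2A, topoisomerase II alpha, untangles sister chromatids. TOP2A read 12.98 and 13.02 in RCC4 EV, 12.95 and 12.90 in RCC4 FoxO1 and 12.97 and 11.79 in RCC4 FoxO3. In UMRC2 TOP2A read 12.43 and 12.23 with EV, 12.37 and 11.96 with FoxO1 and 12.42 and 11.12 with FoxO3. Both FoxO3 arrays with 4OHT were the lowest, with a small drop also on the UMRC2 FoxO1 array, and the difference was -1.16 ± 0.13 (SE, n = 2 lines, adjusted p = 0.00244). NCAPG, a regulatory subunit of condensin I, fell less. NCAPG read 10.91 and 11.00 in RCC4 EV, 10.84 and 11.11 in RCC4 FoxO1 and 10.85 and 10.20 in RCC4 FoxO3. In UMRC2 NCAPG read 10.72 and 10.56 with EV, 10.45 and 10.16 with FoxO1 and 10.48 and 9.38 with FoxO3. The FoxO3 array with 4OHT of RCC4 lay just above the UMRC2 FoxO1 array with 4OHT, so the groups overlapped, and the difference was -0.84 ± 0.19 (SE, n = 2 lines, adjusted p = 0.0237). This call was lost when the RCC4 EV, RCC4 FoxO3, UMRC2 EV or UMRC2 FoxO3 pair was left out (adjusted p = 0.0608, 0.0581, 0.162 and 0.0644).

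The condensin ATPase SMC4 was called lower (-0.77 ± 0.14, adjusted p = 0.00956). NCAPH, the kleisin of condensin I, was at -0.82 ± 0.29 and was not called (adjusted p = 0.1). SMC2, the other ATPase, had the highest value of this role. SMC2 read 11.10 and 11.19 in RCC4 EV, 11.13 and 10.73 in RCC4 FoxO1 and 10.99 and 10.26 in RCC4 FoxO3. In UMRC2 SMC2 read 10.50 and 10.14 with EV, 10.42 and 10.21 with FoxO1 and 10.27 and 9.98 with FoxO3. In UMRC2 the EV array dropped with 4OHT about as far as the FoxO3 array, so only RCC4 showed a gap, and SMC2 differed from EV by -0.38 ± 0.25 (adjusted p = 0.359). Another bright probe set of SMC2 read -0.85 for the same difference. Against FoxO1, TOP2A (-1.02), NCAPG (-0.86) and SMC4 (-0.65) were lower.

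All 4 genes placed under the anaphase ubiquitin pathway were called lower, with a median of -1.42. CDC20 activates the anaphase-promoting complex and is the target of the spindle checkpoint. CDC20 read 13.17 and 13.13 in RCC4 EV, 13.10 and 13.16 in RCC4 FoxO1 and 13.16 and 10.96 in RCC4 FoxO3. In UMRC2 CDC20 read 12.71 and 12.87 with EV, 12.48 and 12.31 with FoxO1 and 12.48 and 9.98 with FoxO3. Its FoxO3 arrays with 4OHT stood more than a unit of log2 below every other array, and the difference was -2.41 ± 0.16 (SE, n = 2 lines, adjusted p = 0.00103) against EV and -2.29 ± 0.16 (SE, n = 2 lines, adjusted p = 0.00563) against FoxO1. UBE2C is the ubiquitin-conjugating enzyme of the same complex and was lower by 1.65 in RCC4 FoxO3 and 1.02 in UMRC2 FoxO3 with 4OHT. It differed from EV by -1.34 ± 0.19 (adjusted p = 0.00439). CDCA3, an F-box protein, was at -1.51 ± 0.21 (adjusted p = 0.00395). PTTG1 (securin), the separase inhibitor that this pathway destroys, had the smallest difference of the 4. PTTG1 read 13.45 and 13.43 in RCC4 EV, 13.29 and 13.37 in RCC4 FoxO1 and 13.40 and 12.16 in RCC4 FoxO3. In UMRC2 PTTG1 read 13.52 and 13.48 with EV, 13.33 and 13.04 with FoxO1 and 13.46 and 12.04 with FoxO3. Still, the other 10 arrays lay between 13.04 and 13.52, and the difference was -1.30 ± 0.13 (SE, n = 2 lines, adjusted p = 0.00161).

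Of the 9 spindle and cytokinesis genes 6 were called lower with FoxO3 than with EV, and all 9 were below 0 (median -0.86). ANLN, anillin, is a scaffold of the contractile ring. ANLN read 12.83 and 12.91 in RCC4 EV, 12.83 and 12.92 in RCC4 FoxO1 and 12.80 and 11.78 in RCC4 FoxO3. In UMRC2 ANLN read 12.68 and 12.58 with EV, 12.84 and 12.29 with FoxO1 and 12.68 and 11.19 with FoxO3. The UMRC2 FoxO1 array with 4OHT was the next lowest after the FoxO3 arrays, and the difference from EV was -1.24 ± 0.15 (SE, n = 2 lines, adjusted p = 0.00264). DLGAP5 (-1.07 ± 0.20, adjusted p = 0.0108), CKAP2 (-1.04 ± 0.18, adjusted p = 0.00887), the midzone bundler PRC1 (-0.99 ± 0.13, adjusted p = 0.00385), RACGAP1, the other subunit of centralspindlin (-0.86 ± 0.15, adjusted p = 0.00808), and NUSAP1 (-0.80 ± 0.13, adjusted p = 0.00693) were lower. RACGAP1 and KIF23 form one complex, and of the pair only RACGAP1 was called.

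HMMR, a spindle-associated protein and hyaluronan receptor, had the highest value of this role. HMMR read 12.74 and 12.71 in RCC4 EV, 12.52 and 12.51 in RCC4 FoxO1 and 12.63 and 12.31 in RCC4 FoxO3. In UMRC2 HMMR read 12.00 and 11.87 with EV, 11.67 and 11.74 with FoxO1 and 11.91 and 11.78 with FoxO3. The lines differed from each other more than any treatment did, the FoxO3 arrays with 4OHT lay among the rest of the arrays in UMRC2, and HMMR was at -0.14 ± 0.14 (adjusted p = 0.567) against EV. ECT2, the exchange factor that activates RhoA at the cleavage site, was at -0.48 ± 0.16 (adjusted p = 0.0943) and ASPM, a spindle pole protein, at -0.26 ± 0.15 (adjusted p = 0.311). Neither was called. Another bright probe set of ASPM read 0.13, with the opposite sign. FoxO1 minus EV lay between -0.22 and 0.12 over the 9 genes.

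The list held 2 transcription factors of the mitotic wave. FOXM1 is a forkhead factor that activates many of the genes above. FOXM1 read 11.50 and 11.60 in RCC4 EV, 11.58 and 11.65 in RCC4 FoxO1 and 11.43 and 10.45 in RCC4 FoxO3. In UMRC2 FOXM1 read 11.59 and 11.58 with EV, 11.45 and 11.64 with FoxO1 and 11.67 and 10.72 with FoxO3. Only the FoxO3 arrays with 4OHT were low, and FOXM1 differed by -1.02 ± 0.16 (SE, n = 2 lines, adjusted p = 0.00617) from EV and by -1.09 ± 0.16 (SE, n = 2 lines, adjusted p = 0.0171) from FoxO1. MYBL2, B-MYB, joins MuvB in S phase and G2. MYBL2 read 11.05 and 11.21 in RCC4 EV, 11.08 and 11.07 in RCC4 FoxO1 and 11.02 and 10.79 in RCC4 FoxO3. In UMRC2 MYBL2 read 11.16 and 11.41 with EV, 11.27 and 11.03 with FoxO1 and 11.19 and 8.49 with FoxO3. MYBL2 dropped by 2.70 in UMRC2 FoxO3 and by 0.24 in RCC4 FoxO3. Its FoxO3 arrays with 4OHT were the lowest of the 12, but the difference of -1.67 ± 0.54 (adjusted p = 0.078) did not pass. Against EV MYBL2 was called lower in 6 of 17 other settings, with values from -2.87 to -0.48, and against FoxO1 in 1 of 17. It passed with the values as deposited (-2.02, adjusted p = 0.0239) and with arrays scaled to a common median (-1.73, adjusted p = 0.0268). The difference was -2.87 without the RCC4 FoxO3 pair, which leaves only the line with the large drop, and -2.39 without the RCC4 EV pair. It stayed at -1.67 without either FoxO1 pair.

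The single lines gave like medians. In RCC4 the FoxO3 response minus the EV response had a median of -1.05 and was below 0 in all 55 members, with KIF23 nearest to 0 at -0.01. In UMRC2 the median was -0.999 and 52 of 55 were below 0, the exceptions being KIF23 (0.64), CENPE (0.22) and SMC2 (0.06). Against FoxO1 all 55 were below 0 in each line, with medians of -1.05 and -0.97. Over the 14283 genes tested, 7819 were below 0 against EV in RCC4 and 7660 in UMRC2. Against FoxO1 these counts were 7789 and 7496. Of the members, 52 were lower in both lines than EV and 21 were at least 2-fold lower in both. The shares of all genes lower in both lines were not computed. Across the 55 genes the values of RCC4 and UMRC2 correlated with r = 0.60 (Spearman's rho 0.59), against r = 0.44 over the 14283 genes. Genes are not independent replicates, the values of one line share its arrays, and no p is given.

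**Figure D4:**
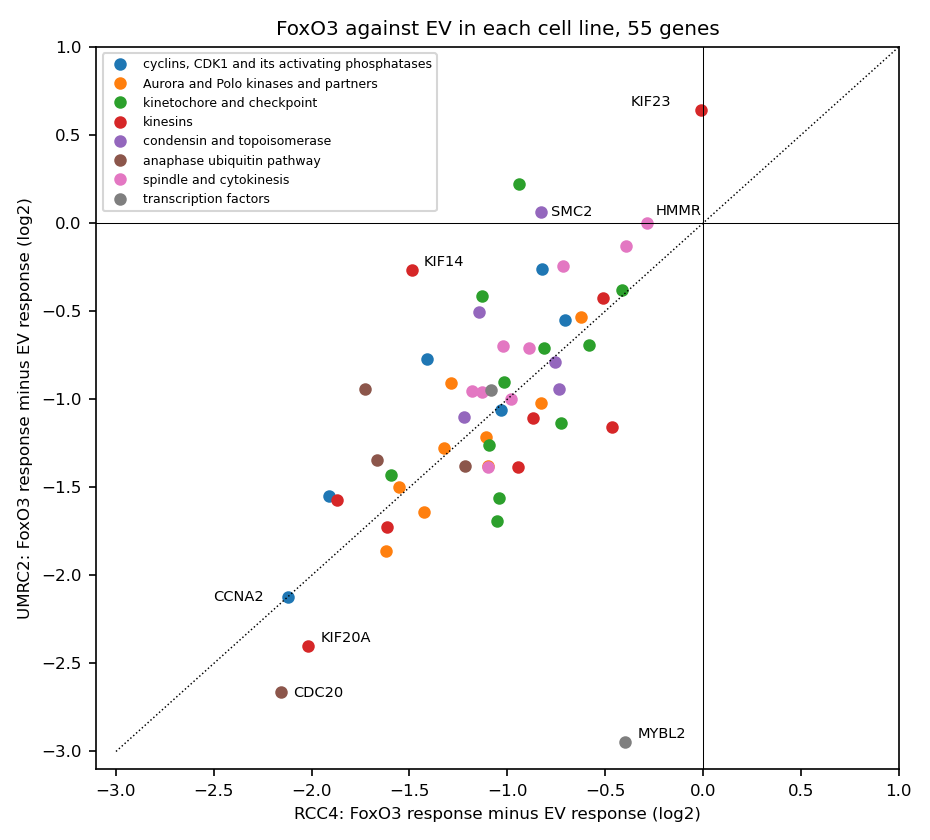
FoxO3 response minus EV response (log2) of the 55 genes in RCC4 (horizontal axis) against UMRC2 (vertical axis), coloured by role, with a dotted line of equal values. Most points lie low and left along the line, CDC20, KIF20A and CCNA2 farthest down it, while MYBL2 lies far below the line (-0.40 and -2.95) and KIF14 above it.

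Whether the FoxO pairs of RCC4 responded otherwise than those of UMRC2 was tested with one more term, taking both FoxO pairs of a line as its replicates. It gave 0 called members in limma, and 2 had an unadjusted p under 0.05. Of all genes tested 0% were called (797 at the unadjusted level), and this fit had 1 residual degree of freedom. The values ran from -0.87 (KIF14) to 1.44 (MYBL2). The median was 0.01 and has no settled sign, since it was -0.32 on the deposited values (all genes -0.37) and 0.29 with arrays scaled to a common median (all genes 0.24). The spike-in level differed between the arrays of the RCC4 FoxO3 pair. Without that pair the member median of the FoxO3 response was -1.002 against EV and -1.041 against FoxO1. The UMRC2 pair alone then stood for FoxO3 and was assumed to vary like the other groups. The 6 UMRC2 arrays shared 1 spike-in level.

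No change of these genes with 4OHT alone was detectable. In the EV lines 0 of the 55 members were called in limma, 0 had an unadjusted p under 0.05, and 0% of all genes tested were called (338 at the unadjusted level). The values ran from -0.23 (NCAPH) to 0.21 (MYBL2). Their median of -0.03 changes sign with the scaling, being -0.01 with the values as deposited and 0.06 with arrays scaled to a common median.

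The fusion lines were also compared with the EV lines before 4OHT. On the vehicle arrays 0 members were called in limma and 10 had an unadjusted p under 0.05, while 0% of all genes tested were called (1223 at the unadjusted level). Levels in the fusion lines were below EV in 50 of 55 members, by a median of -0.10 against 0.00 for all genes. The values ran from -0.34 (PLK1) to 0.13 (AURKB). On the deposited values the median was -0.08, and -0.11 when arrays were scaled to a common median. Without the UMRC2 EV array 42 members were below EV and 1 had an unadjusted p under 0.05, and without the cell line term 0 had.

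RCC4 and UMRC2 differed in the levels from which these responses started. On the vehicle arrays 31 members were higher in RCC4 and 7 were lower, against 26.6% and 23.6% of all genes tested. The member median was 0.22 and that of all genes 0.06. KIF15 (1.12, adjusted p = 0.000426) and CCNB2 (0.86, adjusted p = 5.42e-05) were highest in RCC4, and PRC1 (-0.76, adjusted p = 7.75e-05) and NUF2 (-0.63, adjusted p = 0.0013) were lowest. The split rests on the normalisation. With the values as deposited 50 were higher and 0 lower in RCC4, as were 64.3% and 8.59% of all genes, and the all-gene median was then 0.77. PLK1 and TTK, called lower in RCC4 after quantile normalisation, were called higher there. With arrays scaled to a common median 37 were higher and 5 lower.

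Other genes of the same machinery were read from 4 lists, to be set against the 10.0% of all genes called lower and 6.61% called higher in FoxO3 against EV. The list of 38 further kinetochore and mitotic entry genes was the most like the members, with 20 lower, 0 higher and a median of -0.85 for FoxO3 against EV. At its ends were CDC25A, the CDC25 phosphatase of S phase entry, at -1.79 ± 0.62 (adjusted p = 0.0952) and CENPW at 0.05 ± 0.19 (adjusted p = 0.898), neither of them called. Of 16 tested genes of the anaphase-promoting complex and its regulators, 2 were lower and 0 higher (median -0.14), a share near that of all genes. The lowest was its inhibitor FBXO5 (EMI1), at -1.52 ± 0.23 (adjusted p = 0.00533), and the highest the subunit ANAPC10, at 0.45 ± 0.32 (adjusted p = 0.404). Of 12 cohesin genes 4 were lower and 2 higher (median -0.31), from CDCA5 (sororin), which protects cohesion, at -2.17 ± 0.19 (adjusted p = 0.00149) to the loader NIPBL at 1.04 ± 0.21 (adjusted p = 0.0173).

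The list of 15 genes of MuvB, DREAM and NF-Y held 4 lower and 2 higher (median -0.37). Its ends were E2F5, an E2F of DREAM, at -2.03 ± 0.40 (adjusted p = 0.0142) and RBL2 (p130), the pocket protein of DREAM in resting cells, at 1.42 ± 0.24 (adjusted p = 0.00861). In FoxO1 against EV 0 genes were called in any of the 4 lists. Against FoxO1, the FoxO3 response was lower in 14 of the 38 further genes, 2 of the 16, 3 of the 12 and 2 of the 15. It was higher in 1 gene, of the MuvB, DREAM and NF-Y list. Of all genes tested 3.65% were lower and 2.17% higher in that comparison.

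**Figure D5:**
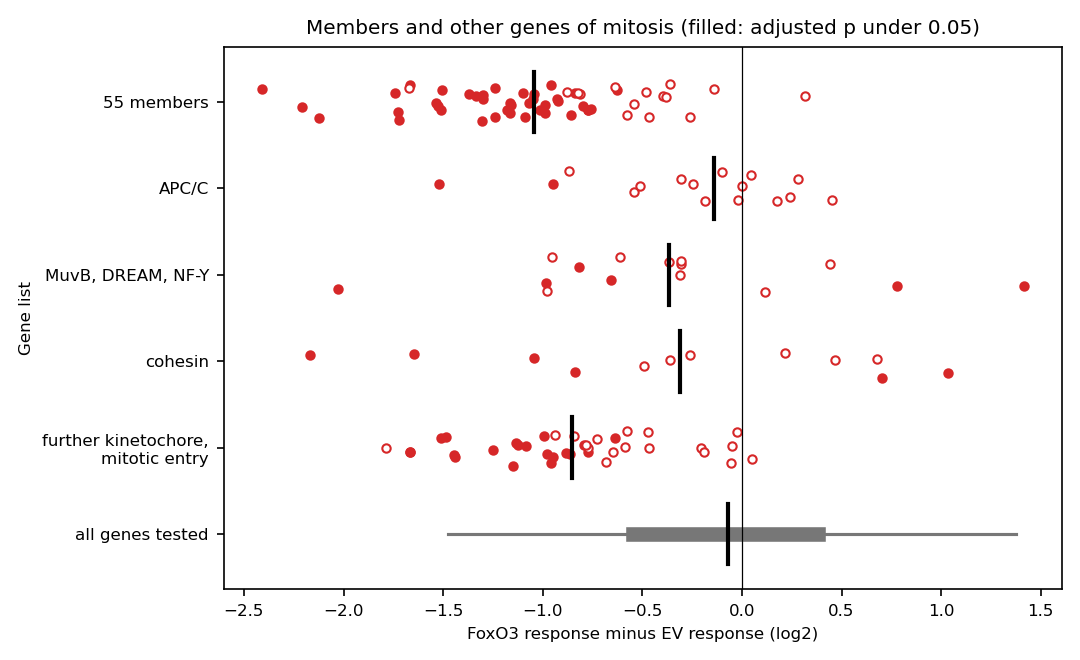
FoxO3 response minus EV response (log2, horizontal axis) of single genes in the 55 members and 4 other lists, filled where the adjusted p is under 0.05, with the median of each list as a black bar; for all genes tested the grey box spans the 25th to 75th percentiles and the line the 5th to 95th. The members (median -1.04) and the further kinetochore and mitotic entry genes (-0.85) lie to the left, and the other lists have medians between -0.37 and -0.14.

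Other probe sets gave a check on the choice of one probe set for each gene. The 55 members had 107 probe sets, and 28 members had 44 other bright ones besides those used. Of the 44, 42 had the same sign as the probe set used for FoxO3 minus EV and 2 had the opposite sign. Those 2 belong to CDC25C and ASPM, which were not called in the comparison. With the second brightest probe set in place of the brightest, 14 of 28 members were lower than EV and 11 of 28 lower than FoxO1. Of all genes tested that way 6.63% and 1.38% were called lower.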

How the data were processed

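The 12 arrays are Affymetrix U133 Plus 2.0, and the values the authors deposited are linear intensity, 1 value for each probe set and array. MAS5 is named in the submitters' processing notes, and its version and scaling target are not given in the sources used here. Of 54675 probe sets, 62 were controls, 41091 had 1 gene symbol, 1801 had several and 11721 had none in the annotation, with symbols updated through RefSeq. Only those with 1 symbol were used. Arrays were quantile-normalised, values under the 20th percentile (intensity 18.4, log2 4.20) were raised to it, and log2 was taken. MAS5 values are noisy when dim, which the filter on the array median limits.

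A limma model (version 3.58.1, R 4.3.3) of the 6 responses held terms for construct and for cell line. It had 2 residual and 5.44 prior degrees of freedom, with the prior variance following the mean. Tests were two-sided, with Benjamini-Hochberg adjustment over 14283 genes and a threshold of 0.05. Named genes are all members, with levels on every array for 10 chosen by role and for the lowest and highest of each role in FoxO3 against EV, and the ends of the other lists. Members, roles and lists were chosen with earlier results of these data known. Alternatives covered scaling, floor, pseudocount, filter, probe set, prior variance, model terms, a fold threshold and each pair left out. ANAPC1, CA9, NDUFA4L2 and CD68 are not analysed here. Promoters were searched in Python 3.11.15, with the first start listed for a gene used where it had several.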

Additional observations from a re-analysis of the deposited data

Results flagged for a closer look

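SMC2, a condensin ATPase, differed from EV in opposite directions in the cell lines. Relative to EV, its response was -0.49 with FoxO1 and -0.83 with FoxO3 in RCC4, and 0.14 and 0.06 in UMRC2. The responses themselves were below 0 in both FoxO lines of UMRC2 (-0.21 and -0.29), where the single EV pair stood at -0.36. Another bright probe set of SMC2 read -0.85 for FoxO3 minus EV over both cell lines. The difference between the lines was -0.763 ± 0.358 (SE), with 2 pairs for each line, and did not pass in limma (adjusted p = 0.906).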

How the results depend on the processing

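Over the 7 comparisons, 114 recomputed counts of members were within 1.5 times the reported count, or again 0 where it was 0, and 12 were not. In FoxO1 against EV, 4OHT alone, the line difference and fusion lines on vehicle, the count was 0 and stayed 0 in every setting. Those counts could not fall, and all 12 came from the other comparisons. No member's call in a response comparison turned direction in any setting. In the vehicle levels of RCC4 against UMRC2, 2 of the 38 calls did with the values as deposited (PLK1 and TTK). FoxO3 against EV (40 lower) gave 12 with the values as deposited, 0 with no filter on dim probe sets, 0 with a constant prior variance and 14 of 28 with the second brightest probe set. FoxO3 against FoxO1 (38 lower) gave 2, 0, 0 and 11 of 28 under the same settings. In that order, 3.20%, 0%, 0% and 6.63% of all genes were called lower against EV. Against FoxO1 the shares were 0.224%, 0%, 0% and 1.38%. The cause of these lower counts was not tested, except that the second brightest probe set exists for 28 members only. Leaving out 1 pair at a time gave 30 to 40 lower for FoxO3 against EV and 6 to 39 for FoxO3 against FoxO1, the low end without the RCC4 FoxO1 pair. The vehicle levels of RCC4 against UMRC2 (38 called in either direction) gave 15 of 28 with the second brightest probe set and 1 where a call also needed an absolute log2 difference of 1. The median over members of FoxO3 against EV lay between -1.40 and -0.95 in all settings. The line difference was not run with a pair left out or without the cell line term. Each 4OHT array was paired with the vehicle array of its own engineered line throughout, and the labels carry no replicate numbers for a further block. No member was at the floor on any array, and the part of background in their values was not tested.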
